A study of Arabidopsis thaliana with 4 samples.

Results

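WRKY genes encode plant transcription factors that were followed here in roots taken apart into single cells. The members are the probe sets of the array whose single gene bears the name WRKY with a number, as its symbol or as a synonym, in the array's annotation or in the RefSeq gene table. The rule took 7 of the 22746 probe sets that are not controls, each for a different gene, with no filter on signal. They are WRKY6 (AT1G62300), WRKY20 (AT4G26640), WRKY22 (AT4G01250), WRKY42 (AT4G04450), WRKY47 (AT4G01720), WRKY53 (AT4G23810) and ZAP1 (AT2G04880), which has WRKY1 as a synonym. The RefSeq table holds 72 genes with such a name, so the other 65 are not analysed here, among them well-studied ones such as WRKY33, WRKY40 and WRKY70.

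The study used Columbia seedling roots 6 days after germination, and RNA was amplified in a two-cycle protocol and measured on 4 Affymetrix arrays. In the sorted-protoplast group (2 arrays) the roots were protoplasted, that is, their cell walls were digested, and the released cells passed through a fluorescence-activated cell sorter with every cell kept. In the whole-root group (2 arrays) intact roots were harvested. Both groups had been on 140 mM NaCl for 1 hour beforehand, no array holds untreated roots, and the comparison asks how protoplasting and sorting alter transcript levels under salt.

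WRKY proteins share a domain that ends in a zinc finger and binds the W-box, a short element in the promoters of many defence, wound and senescence genes, often those of WRKY genes themselves. The family is usually divided by the number of these domains and the type of zinc finger. Members of group I carry a pair of domains, those of group II a single one, and those of group III a single one with another zinc finger type. Several WRKY genes are themselves switched on within a short time of wounding, of contact with microbial molecules or of osmotic stress, through calcium signals and MAP kinase cascades. Of the genes measured, ZAP1 and WRKY20 belong to group I, WRKY6, WRKY42 and WRKY47 to subgroup IIb, WRKY22 to subgroup IIe and WRKY53 to group III.

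WRKY22 and WRKY53, both genes of defence signalling, rose in sorted protoplasts, and the other 5 genes did not pass the test. The deposited values are signal intensities made with MAS5. They were tested as log2(signal + 16) with limma across all 22746 probe sets, and the adjusted p is Benjamini-Hochberg's over all of them, with a threshold of 0.05. At that threshold 2 of the 7 genes were higher, against 1.73% of all probe sets. None of the 7 was lower (0 genes, against 0.602% of all probe sets), with 2 lower at an unadjusted p under 0.05, against 10.8% of all probe sets (2 were higher at that p, against 8.45%). The median log2 difference, sorted protoplasts minus whole roots, was 0.55 over the 7 genes and -0.11 over all probe sets, and the genes ranged from -1.19 to 4.1. The median of the 7 genes was 0.34 without whole-root replicate 1 and 0.13 after spike-in scaling, where that of all probe sets was -0.42.

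**Figure D1:**
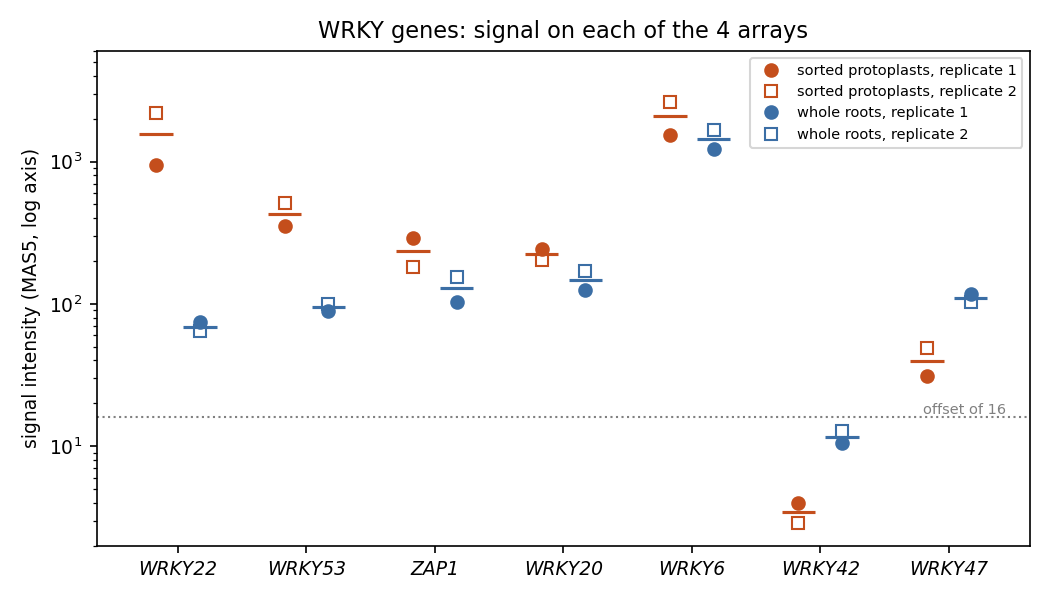
Signal intensity (MAS5, log axis) of the 7 WRKY genes on each of the 4 arrays, sorted protoplasts in orange and whole roots in blue, with filled circles for replicate 1, open squares for replicate 2 and bars for the group means. WRKY22 had 949.8 and 2176.5 in sorted protoplasts, against 74.0 and 64.03 in whole roots, while the groups lay close for WRKY6.

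WRKY22 acts in the signalling that follows detection of bacterial flagellin, downstream of a MAP kinase cascade, and in senescence. Its signal was 949.8 and 2176.5 on the sorted-protoplast arrays, against 74.0 and 64.03 on the whole-root arrays. Both sorted-protoplast arrays lay far above both whole-root arrays, and the sorted-protoplast arrays also differed from each other, by 2.29 times. The mean signal was 1563 ± 867 in sorted protoplasts and 69.0 ± 7.1 in whole roots (SD, n = 2 each), a ratio of means of 22.6. Taken between single arrays, the ratio of sorted protoplasts to whole roots lay between 12.8 and 34.0. The log2 difference was 4.1 ± 0.44 (SE), with a 95% interval from 3.04 to 5.16 and a limma adjusted p of 0.0148. It was the 46th highest of the 22746 differences. The gene stood at the 91.8 and 96.7 percentiles of its array in sorted protoplasts, against the 47.6 and 43.1 percentiles in whole roots, so a transcript near the middle of the range in whole roots was among the brighter ones in sorted protoplasts.

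WRKY53 is known as an early regulator of leaf senescence and has a part in defence. Its signal was 351.9 and 508.3 on the sorted-protoplast arrays, against 89.6 and 99.2 on the whole-root arrays. The groups did not overlap, and the whole-root arrays lay close together. The mean was 430 ± 111 in sorted protoplasts and 94.4 ± 6.8 in whole roots (SD, n = 2 each), a ratio of means of 4.56, with single-array ratios between 3.55 and 5.67. The log2 difference was 1.99 ± 0.33 (SE, 95% interval 1.20 to 2.79), and the limma adjusted p of 0.0414 lay close to the threshold. The gene moved up to the 78.5 and 85.2 percentiles of the sorted-protoplast arrays, against 51.9 and 52.0 on the whole-root arrays.

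The calls for both genes rested on having both whole-root arrays. Without whole-root replicate 1 the limma adjusted p was 0.187 for WRKY22 and 0.275 for WRKY53, and without whole-root replicate 2 it was 0.184 and 0.226. In each of these fits 0 of the 22746 probe sets passed, so the loss was not particular to these genes, and their log2 differences stayed at 4.18 and 4.01 for WRKY22 and at 1.93 and 2.06 for WRKY53. WRKY53 also lost its call without sorted-protoplast replicate 2 (1.74, adjusted p = 0.0931), with arrays scaled on the hybridization spike-ins (1.57, adjusted p = 0.188) and with an offset of 64 in place of 16 (1.62, adjusted p = 0.0614). Nothing in the labels says whether the replicates were grown apart, so the p-values reflect only the spread of these samples, which could be technical.

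The difference of WRKY22 was larger than that of WRKY53 on every array pairing, which can be read without any scaling of arrays. The log2 ratio of the WRKY22 signal to the WRKY53 signal within an array was 1.43 and 2.10 in sorted protoplasts, against -0.28 and -0.63 in whole roots. The ratio thus changed by 2.22 on the log2 scale, and the groups did not overlap. The pair was chosen after its values were seen, and with 2 arrays a group the exact two-sided permutation test cannot go below the p of 0.333 that it gave.

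**Figure D2:**
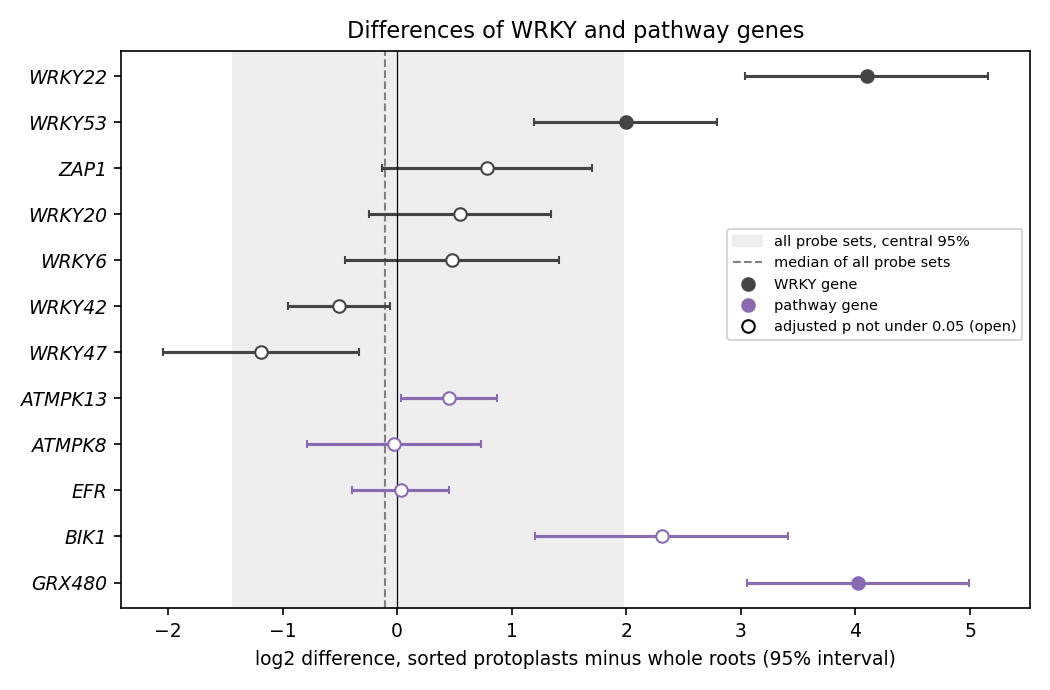
Log2 difference (sorted protoplasts minus whole roots) of the 7 WRKY genes and of 5 pathway genes, with 95% intervals from limma. Filled points have an adjusted p under 0.05, the grey band holds the central 95% of all probe sets (-1.43 to 1.97) and the dashed line is their median of -0.11. WRKY22 and GRX480 lie well to the right of the band, WRKY53 sits at its edge, and WRKY47 is the lowest of the WRKY genes.

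The group I genes ZAP1 and WRKY20 had smaller differences, which did not pass. ZAP1, a zinc-dependent activator, had a signal of 289.3 and 180.7 in sorted protoplasts, against 102.6 and 154.4 in whole roots. Its replicates differed by 1.60 times in sorted protoplasts and by 1.5 times in whole roots, almost as much as the group means did, whose ratio was 1.83. The log2 difference was 0.79 ± 0.38 (SE, 95% interval -0.13 to 1.70, limma adjusted p = 0.326). WRKY20 had a signal of 242.5 and 201.9 in sorted protoplasts, against 124.6 and 171.3 in whole roots, and its log2 difference was 0.55 ± 0.33 (SE, 95% interval -0.25 to 1.34, limma adjusted p = 0.422). For both genes the sorted-protoplast arrays lay above the whole-root arrays, but the nearest arrays differed by only 1.17 times for ZAP1 and 1.18 times for WRKY20. These intervals leave room for no difference and for one of more than 1 on the log2 scale.

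The 3 genes of subgroup IIb had differences of both signs, and none passed. WRKY6, which has roles in senescence, defence and the control of phosphate transport, had a signal of 1535.8 and 2621.2 in sorted protoplasts, against 1225.9 and 1672.7 in whole roots. It was the only one of the 7 whose groups overlapped. Its log2 difference was 0.48 ± 0.39 (SE, 95% interval -0.45 to 1.42, limma adjusted p = 0.549), and with 1 array left out it ranged from 0.10 without sorted-protoplast replicate 2 to 0.86 without sorted-protoplast replicate 1, with 0.26 without whole-root replicate 1. The gene stayed above the 93rd percentile on all arrays, at 95.2 and 97.4 in sorted protoplasts and 93.8 and 96.1 in whole roots.

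WRKY47, reported to act on cell wall genes under aluminium stress, had the lowest difference of the 7. Its signal was 31.1 and 48.8 in sorted protoplasts, against 117.3 and 102.8 in whole roots. Both sorted-protoplast values were below both whole-root values, and the gene stood at the 33.3 and 40.3 percentiles in sorted protoplasts, against 57.7 and 52.6 in whole roots. The mean was 39.9 ± 12.5 in sorted protoplasts and 110 ± 10 in whole roots (SD, n = 2 each), so the mean was 2.76 times as high in whole roots. The log2 difference was -1.19 ± 0.35 (SE, 95% interval -2.05 to -0.33), with an unadjusted p of 0.0142 and a limma adjusted p of 0.146. It came nearest to the threshold when the 40% of probe sets with the lowest signal were left out, with an adjusted p of 0.0544. Both sorted-protoplast values lie under the filter's signal of 51.3, so the gene passed that filter only through its whole-root values and that p is no support for a difference. In bulk samples such as these, fewer cells of a type and less RNA per cell cannot be told apart. EXPA18, an expansin gene of root hairs, fell by 2.39 on the log2 scale (limma adjusted p = 0.0210), with 121.0 and 149.9 in sorted protoplasts, against 740.9 and 811.6 in whole roots. EXPA7, another root hair expansin, did not pass, at -1.95 (limma adjusted p = 0.0553). The part of root hair cells in the values of WRKY47 was not tested.

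WRKY42, known for its role in phosphate transport, was dim on every array. Its signal was 4.0 and 2.9 in sorted protoplasts, against 10.5 and 12.8 in whole roots, all under the offset of 16 and between the 6.78 and 17.4 percentiles of their arrays. The sorted-protoplast values were below the whole-root values, and the log2 difference of -0.51 (SE 0.18) did not pass (limma adjusted p = 0.207). At this level the offset sets the size of the difference, which was -1.52 with an offset of 1 and -0.17 with an offset of 64, and it passed the test with neither. No detection calls were used, so whether the transcript was above background is not known here.

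Within subgroup IIb, WRKY47 and WRKY6 were set against each other in the same way. The log2 ratio of the WRKY47 signal to the WRKY6 signal within an array was -5.62 and -5.75 in sorted protoplasts, against -3.39 and -4.02 in whole roots, a change by -1.98 with no overlap of the groups. This is the other of the 2 pairs compared, also chosen after its values were seen, and its exact two-sided permutation p was again 0.333, the smallest this design allows, also after adjustment over both pairs. A difference between these genes is therefore not shown by this test.

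**Figure D3:**
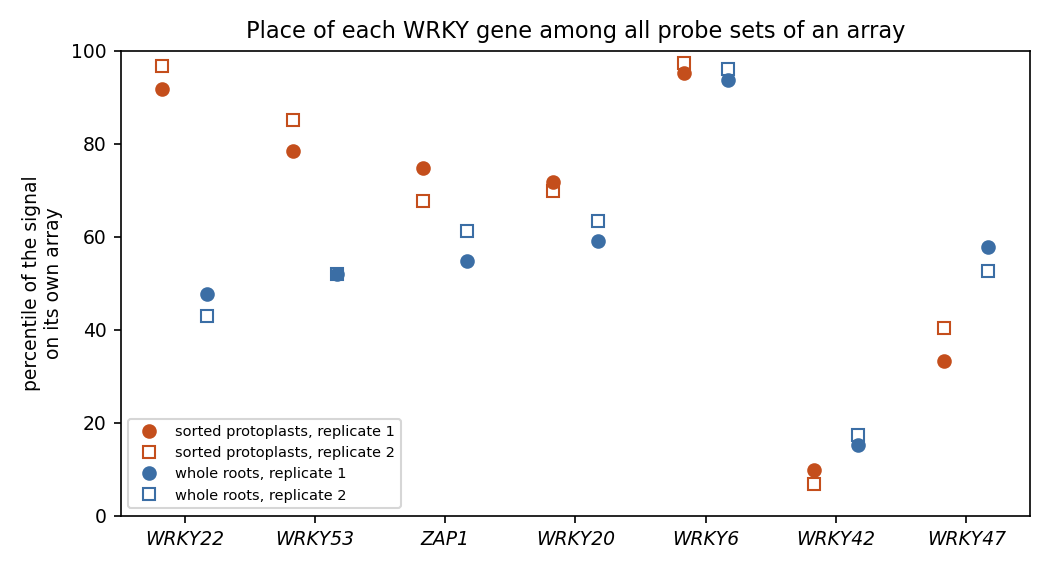
Percentile of each WRKY gene's signal among the 22746 probe sets of its own array, sorted protoplasts in orange and whole roots in blue, with filled circles for replicate 1 and open squares for replicate 2. WRKY22 stood at 91.8 and 96.7 in sorted protoplasts and at 47.6 and 43.1 in whole roots, whereas WRKY6 stayed above the 93rd percentile on all 4 arrays.

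Counted by overlap alone, both sorted-protoplast arrays were above both whole-root arrays for 4 of the 7 genes, WRKY22, WRKY53, ZAP1 and WRKY20, against 18.6% of all probe sets. Both were below for 2 genes, WRKY47 and WRKY42, against 32.7% of all probe sets, a share close to that background. With the 40% of probe sets of lowest mean signal left out, 6 genes remained, since WRKY42 was too dim, and the calls were again WRKY22 and WRKY53, where 6.38% of all probe sets were higher and 4.11% lower.

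Scaling on spike-ins lowered the differences of all 7 genes. With arrays scaled on 18 hybridization spike-in probe sets, which are added in known amounts, the median log2 difference of all probe sets was -0.42, against -0.11 with the authors' scaling. Relative to that median, WRKY22 stood at 4.1 with the spike-ins and at 4.21 with the authors' scaling, WRKY53 at 1.99 and 2.10, and WRKY47 at -1.14 and -1.08. No gene of the 7 changed sign under either scaling, but WRKY6 and WRKY20 came down to 0.03 and 0.13 with the spike-ins. The spike-in levels themselves, on the log2 scale, were 9.397 and 10.04 in sorted protoplasts, against 9.496 and 9.062 in whole roots. They thus overlapped between the groups and differed between replicates. The SE of WRKY53 was 0.595 with the spike-ins, against 0.33 with the authors' scaling. Whether the spike-ins followed the amount of root RNA was not tested.

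**Figure D4:**
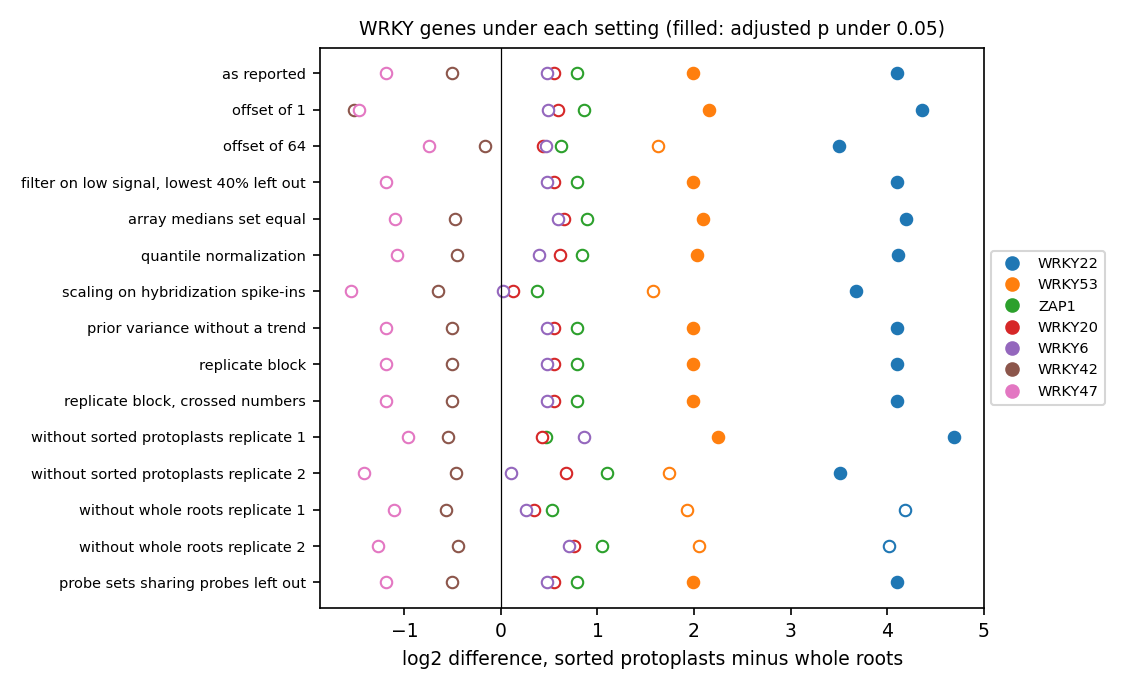
Log2 difference (sorted protoplasts minus whole roots) of the 7 WRKY genes, one colour a gene, as reported and under each alternative processing. Filled points have a limma adjusted p under 0.05. WRKY22 lies between 3.50 and 4.69 and WRKY53 between 1.57 and 2.25 over the alternatives, and no gene crosses 0.

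Genes that work with WRKY factors could be followed only in part. A gene is called measured here if the annotation used assigns a probe set to it alone. Other genes may still have probe sets on the array. Of 65 listed pathway genes 5 were named singly by a probe set, 1 rose and 0 fell in limma's test, and at an unadjusted p under 0.05 the counts were 3 higher and 0 lower. The background shares were 1.73% higher and 0.602% lower by limma's test, and 8.45% and 10.8% at the unadjusted p. The 1 gene that rose was GRX480, from the defence list. The lists were chosen with earlier results of these data known, so these counts are no support for a change of the pathway. Of 34 MAP kinase cascade genes 2 were measured. ATMPK8, a MAP kinase activated by wounding, had 444.3 and 359.7 in sorted protoplasts, against 350.8 and 473.8 in whole roots, with overlapping groups and a log2 difference of -0.03 (95% interval -0.79 to 0.73), a value whose sign turned with array medians set equal (0.08). ATMPK13, another MAP kinase, had signals of 6.9 and 10.1 in sorted protoplasts, against 1.4 and 2.3 in whole roots, all under the offset. Its log2 difference of 0.45 did not pass (limma adjusted p = 0.230). The offset sets its size, which was 1.73 with an offset of 1 and 0.14 with an offset of 64, and it passed with neither. None of the kinases known to act upstream of WRKY22 was named singly by a probe set in the annotation used, so they were not followed.

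Of 7 receptors and receptor-associated kinases 2 were measured. BIK1, a cytoplasmic kinase that relays signals from the flagellin receptor, had 388.1 and 839.7 in sorted protoplasts, against 78.9 and 132.3 in whole roots. The groups did not overlap, but the log2 difference of 2.31 ± 0.46 (SE, 95% interval 1.20 to 3.41) did not pass (limma adjusted p = 0.0631). It passed with the lowest 40% left out (limma adjusted p = 0.0113), with an offset of 1 (0.0374) and with the replicate block (0.0242). It did not pass with an offset of 64 (limma adjusted p = 0.0889), with array medians set equal (0.0542), with quantile normalization (0.0651) or with spike-in scaling (0.143). The log2 difference was 2.85 without sorted-protoplast replicate 1 and 1.77 without sorted-protoplast replicate 2. EFR, the receptor for bacterial elongation factor Tu, had signals of 1.0 to 5.2 on all arrays and a log2 difference of 0.03, whose sign turned with an offset of 1 and with spike-in scaling.

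Of 13 defence genes 1 was measured, and it rose, but the list was chosen with earlier results of these data known. This rise is therefore no support for a rise of defence genes as a set. GRX480, a glutaredoxin gene of salicylate and jasmonate crosstalk, had 2699 and 4925 in sorted protoplasts, against 254.1 and 172.3 in whole roots, with a log2 difference of 4.02 (SE 0.40) and a limma adjusted p of 0.0139. Its difference was close in size to that of WRKY22, and it lost its call without either whole-root array (adjusted p = 0.162 without replicate 1 and 0.176 without replicate 2). The 5 listed VQ protein genes, whose products bind WRKY factors, and the 6 genes of the epidermal pathway around TTG1 had 0 measured members.

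By their locus numbers, 5 of the 7 genes lie on chromosome 4, and none neighbours another. Of the 14 adjacent protein-coding genes in the TAIR10.1 RefSeq table, 10 were named singly by a probe set, 1 was higher and 0 were lower in limma's test, and at an unadjusted p under 0.05 the counts were 2 higher and 1 lower. Against the same shares of all probe sets, 1.73% and 0.602% by limma's test and 8.45% and 10.8% unadjusted, the 1 lower gene of 10 is close to the background. The one that rose was AT4G04460 beside WRKY42, with 2103 and 1573 in sorted protoplasts, against 338.0 and 391.0 in whole roots (log2 difference 2.27 ± 0.31 (SE), limma adjusted p = 0.0258). AT4G01240 beside WRKY22 did not pass, at 2.21 ± 0.43 (SE, limma adjusted p = 0.0610), nor did 3xHMG-box2 beside WRKY53, at -1.85 (limma adjusted p = 0.0595). The other 7 lay between -0.19 and 0.60.

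Each array had been scaled by the authors to a trimmed mean of about 250.02, and array medians lay between 79.0 and 90.3. Across all 22746 probe sets Pearson's r of log2(signal + 16) was 0.950 between the sorted-protoplast arrays and 0.964 between the whole-root arrays, against 0.890 to 0.907 across groups. These r are taken over probe sets, which are no replicates. Of 10 root markers the expansins EXPA7 and EXPA18 were the 2 measured, and both were well above the array median in whole roots. Of 6 leaf photosynthesis markers 2 were measured, LHCB4.1 at 171.6 and 60.4 in sorted protoplasts, against 185.6 and 256.7 in whole roots, and RCA at 107.2 and 81.7 in sorted protoplasts, against 134.3 and 180.5 in whole roots. Neither passed (limma adjusted p = 0.345 and 0.372), and neither was at 0 on any array. Both also lay above the array medians of the whole-root arrays, 82.3 and 90.3. A signal above the median thus does not tell root markers from leaf markers here. Precision is limited throughout by the small number of arrays.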

How the data were processed

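RNA of 2 sorted-protoplast and 2 whole-root samples was measured. The authors deposited 1 linear signal intensity for each probe set and array, and the submitters' processing notes name MAS5, with no version. Sample titles gave the groups and replicate numbers. The table has 22810 probe sets, of which 64 controls were left out; 13513 of the others had 1 gene in the platform annotation, named through the TAIR10.1 RefSeq table. No sequences were used here, and gene positions in the RefSeq table served to find the adjacent genes.

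Deposited intensities were converted to log2(signal + 16), which understates differences of dim genes. They were fitted on all 22746 probe sets with limma 3.58.1 in R 4.3.3 (lmFit, eBayes with trended prior variance, 2 residual and 4.33 prior degrees of freedom). The fit was also run on simulated data whose means and variances came from these arrays. No signal filter was used, so that every gene got a test; leaving out the lowest 40% was an alternative, as were other offsets, scalings, prior variance, a replicate block, a threshold of 0.01, removal of probe sets sharing probes and each array in turn. Within-array ratios were compared with scipy 1.17.1 by exact permutation. Every WRKY gene is named. Of the pathway lists, called members and the brightest were to be named, and all 5 measured are. Adjacent genes and within-array pairs were added after values were seen. The genes and lists were chosen with earlier results of these data known.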

Additional observations from a re-analysis of the deposited data

How the results depend on the processing

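Of 97 comparisons of a WRKY gene with an alternative, 90 kept direction and side of the threshold, 7 lost the call (5 of WRKY53, 2 of WRKY22) and 0 reversed. The 2 genes higher became 1 with an offset of 64 and with spike-in scaling, 0 at a threshold of 0.01, and 0 to 2 with 1 array left out; the cause was not tested, except that without a whole-root array 0 of all probe sets passed. The number lower stayed at 0 throughout. The 5 genes without a call had none to lose, and most of the 90 unchanged comparisons were theirs. The adjusted p ranged from 0.00079 to 0.187 for WRKY22 and from 0.00834 to 0.275 for WRKY53. The median of the WRKY genes, 0.55, was 0.13 with spike-in scaling and 0.34 to 0.76 with 1 array left out. The 1 pathway gene called became 2 with an offset of 1, with the lowest 40% left out and with the replicate block, where BIK1 joined GRX480, and 0 to 2 with 1 array left out. ATMPK8, at -0.03, reversed to 0.078 with array medians set equal and ranged from -0.24 to 0.18 with 1 array left out. EFR, at 0.03, reversed to -0.0048 with an offset of 1 and -0.056 with spike-in scaling, and ranged from -0.13 to 0.19 with 1 array left out. Over all probe sets, 394 higher and 137 lower became 870 and 561 with the lowest 40% left out, 600 and 266 with an offset of 1, 255 and 61 with an offset of 64, 255 and 238 with spike-in scaling, 530 and 73 without sorted-protoplast replicate 1, and 0 and 0 without either whole-root array.

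Same-numbered replicates share only a number, and their deviations correlated at -0.131. With the number as a replicate block, 2 WRKY genes stayed higher and 0 lower, the median was 0.55, and all calls were 504 higher and 175 lower. With crossed numbers, added after seeing the data, they were 623 and 263, with 2 WRKY genes higher. Low signal limits WRKY42, ATMPK13 and EFR, since 19.6% to 22.1% of an array's values lay below the offset.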
